A study of Mus musculus with 78 samples.

Results

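The comparison described here set flank skin of mice treated with the antibody DC101 against flank skin of untreated mice, both taken 60 days after an adenovirus carrying the gene for vascular endothelial growth factor A (VEGF-A) had been injected into the skin. It held 14 of the 78 arrays of the series, 6 of DC101-treated skin and 8 of untreated skin, chosen by their labels alone, and covered all 14718 genes measured. Arrays of the DC101 group carried running numbers 89 to 94 and those of the untreated group 73 to 80, and single arrays are named by these numbers. All mice in both groups were female athymic nude mice of the strain Crl:NU(NCr)-Foxn1nu. These lack a functional Foxn1 gene and with it a normal thymus and mature T cells. The labels give the age of both groups as 4 to 6 weeks. Since the skin was taken 60 days after injection, this cannot be the age at that time. Both groups had received the same vector, Ad-VEGF-A164, in the skin of the flank, and the DC101 group had also received DC101 at 20 mpk (mg per kg body weight) into the peritoneum. Skin of mice given the antibody G6 at 10 mpk served as a second treated group at day 60 (8 arrays), and skin without vector as day 0 (8 arrays). No group received an empty vector. At least 5 animals were used per group. Which animal each array came from is not stated, and if 2 arrays hold skin of 1 animal the p-values are smaller than they should be. Arrays were also taken in pairs by running number, such as 73 with 74 and 89 with 90. With group means removed, 4 of 6 DC101 arrays correlated best in their group with the other array of their pair, against 1 of 8 untreated arrays. Whether such arrays share an animal is not stated. The hour at which skin was taken is not given in the sources used here.

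VEGF-A is the main growth factor of blood vessels. It acts through the receptor VEGFR2, encoded by Kdr, on endothelial cells, where it drives division, sprouting and vessel permeability, while VEGFR1, encoded by Flt1, binds it with high affinity and limits its supply. DC101 is a rat antibody that binds mouse VEGFR2 and blocks the receptor. In skin, adenoviral VEGF-A first produces enlarged, thin-walled vessels, and later vessels that no longer all depend on the growth factor.

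Expression was read as the signal of 1 probe set per gene on a whole-genome array, on the scale log2(signal + 16), so a difference of 1 is close to a 2-fold difference. Levels below are given as the lowest, median and highest array of each group on this scale, and differences as DC101 minus untreated from a limma fit with p-values adjusted over all 14718 genes. In the DC101 arrays 1701 genes passed an adjusted p of 0.05 (11.6% of those tested), 684 of them higher (4.65%) and 1017 lower (6.91%), and 230 of them differed by at least 2-fold. Markers of epidermis (Krt5, Krt14), fibroblasts (Col1a1, Dcn), endothelium (Pecam1, Cdh5), striated muscle (Ckm) and fat (Adipoq) were above the filter level in both groups, as a flank sample of skin with its underlying muscle would hold, and none of these passed the test. Among the other markers examined, Tek of endothelium (0.72), Alas2 of red cells (-2.20) and Tyrp1 of melanocytes (-2.10) passed. The T cell markers Cd3d and Cd3e were not among the genes measured. Cd3g was below the filter level on all DC101 arrays, with a fitted difference of -0.56 that did not pass. Of 11 measured T and NK cell genes none passed, and 10 had a negative difference (median -0.32).

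The groups also differed in a measure of RNA integrity and labelling. The ratio of the 3′ to the 5′ probe set of Actb, which rises as transcripts are shortened and also depends on the labelling reaction, was 1.17, 1.302 and 1.56 (lowest, median and highest) in DC101 arrays, against 1.58, 1.88 and 2.57 in untreated arrays, and the same ratio of Gapdh was 0.783, 0.815 and 0.819 in DC101 arrays, against 0.834, 0.951 and 1.02 in untreated arrays. Neither ratio overlapped between the groups, and whether RNA integrity or labelling moved them was not tested. With both log2 ratios as covariates in the fit, 183 genes passed, 161 of which also passed without them, and 1699 of the 1701 genes had the same sign in both fits. Of the genes given below as changed between DC101 and untreated skin at day 60 and fitted both ways, Per1, Nr1d1, Dbp, Cirbp, Depp1, Cebpd, Errfi1, Sgk1, Ddit4, Hsph1, Hdc, Siglec1, Trim12c, Ccdc25, Alas2 and Rsad2 passed with the ratios as covariates, and the calls of the others were lost in that fit. Standard errors grew in it (median ratio 1.15), and some of the lost differences stayed about as large, such as Adm at 1.04, Igfbp3 at 1.03, Iigp1 at -1.11 and Krtap16-3 at -2.21. Others shrank, among them Ryr1 to 0.39, Smtnl1 to 0.16, Klf15 to 0.35 and Sdhc to 0.22. With arrays adjacent in number averaged, 697 genes passed. Single arrays mattered as well. Leaving out DC101 array 90, 91 or 92 left 1081, 898 and 951 genes, and leaving out DC101 arrays 93 and 94, which stood apart from the other DC101 arrays, gave 2993. Untreated array 79 was low in skeletal muscle genes and untreated array 77 high in pericyte and endothelial genes, and 1074 genes passed without this pair.

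Among the 34 gene lists examined, the clock list had the largest share of members whose groups did not overlap. The circadian clock is a loop in which the activators CLOCK and BMAL1 (Arntl) switch on Per, Cry and Nr1d genes through the E-box, and the proteins of these genes then shut the activators down. A second layer, DBP and TEF, acts through the D-box. Of 18 measured clock genes, 8 rose in DC101 skin and none fell, and in all 8 the groups did not overlap, which held for 117 higher genes of all tested (0.795%). The median difference of the 18 was 0.28, against -0.01 over all genes. The promoters of 3 genes that rose are shown because they hold the letters of these elements: 250 bases before the RefSeq start in build GRCm38.p6, at chr11:69098699-69098948 (plus strand, Per1, the first of 2 windows listed), chr4:151044666-151044915 (minus strand, Per3) and chr6:90462326-90462575 (plus strand, Klf15). Capitals mark the E-box CACGTG in Per1 and Klf15 and the D-box TTATGTAA in Per3.
Per1: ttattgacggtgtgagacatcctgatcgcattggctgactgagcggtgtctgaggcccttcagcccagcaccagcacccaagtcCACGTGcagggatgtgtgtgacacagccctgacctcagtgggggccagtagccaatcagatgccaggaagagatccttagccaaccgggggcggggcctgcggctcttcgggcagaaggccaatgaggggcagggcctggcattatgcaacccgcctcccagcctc
Per3: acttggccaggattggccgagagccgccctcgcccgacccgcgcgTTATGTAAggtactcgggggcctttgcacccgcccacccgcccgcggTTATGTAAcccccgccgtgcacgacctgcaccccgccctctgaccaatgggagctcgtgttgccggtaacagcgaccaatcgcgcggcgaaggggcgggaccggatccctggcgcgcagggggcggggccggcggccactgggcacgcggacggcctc
Klf15: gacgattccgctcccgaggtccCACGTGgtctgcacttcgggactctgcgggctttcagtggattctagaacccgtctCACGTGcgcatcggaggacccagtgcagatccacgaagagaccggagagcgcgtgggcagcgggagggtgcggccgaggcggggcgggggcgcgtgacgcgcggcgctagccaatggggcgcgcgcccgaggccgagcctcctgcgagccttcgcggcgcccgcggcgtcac
The Per1 window held the E-box 166 bases before the start, the Klf15 window held it at 228 and 172 bases, and the Per3 window held its D-box copies at 205 and 158 bases. Searched on both strands, CACGTG occurred in the window of 5 of 16 clock genes measured with a promoter, against 9.36% of the 11790 tested genes with one. TTATGTAA occurred in 1 of the 16, against 0.577%. These are letter matches and show no binding.

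Per1, a repressor of the loop that also answers quickly to hormones, had 11.75, 11.85 and 12.06 in DC101 arrays, against 9.47, 10.26 and 11.42 in untreated arrays. All DC101 arrays lay above all untreated arrays, within a narrow band, and the difference was 1.55 (SE 0.15, adjusted p = 8.59e-12). Nr1d1, which encodes the heme-binding repressor REV-ERB alpha, had 10.29, 11.09 and 11.19 in DC101 skin and 8.30, 9.33 and 9.99 in untreated skin, a difference of 1.70 (SE 0.23, adjusted p = 3.96e-07). Its lowest DC101 array, 93, was still above every untreated one. Dbp, the D-box activator whose transcript follows the clock closely, had 10.95, 11.11 and 11.51 in DC101 arrays, against 9.08, 9.90 and 10.74 in untreated arrays, a difference of 1.23 (adjusted p = 0.000145). Its partner in sequence binding, Tef, differed by 0.56 (adjusted p = 0.00426), but 2 other probe sets of Tef did not pass (0.28 and -0.60), nor did Tef with all its probe sets averaged (0.08, adjusted p = 0.804). Nr1d2, the second REV-ERB gene, differed by 0.96 (adjusted p = 0.000228), Bhlhe40, a repressor that binds E-boxes, by 0.85 (adjusted p = 0.00033), Cry2 by 0.72 (adjusted p = 0.0013) and Per3 by 0.63 (adjusted p = 0.00508), with other probe sets of Per3 between 0.28 and 0.92, of which 2 passed. The activators themselves did not pass, with a difference of 0.05 for Arntl and -0.03 for Clock, nor did Per2 at 0.05 or Cry1 at -0.51 (adjusted p = 0.0598). The mean level of the 18 genes was 10.55, 10.71 and 10.79 in DC101 arrays, against 10.11, 10.26 and 10.44 in untreated arrays, so the list level did not overlap either. With the RNA ratios as covariates Per1 (1.61), Nr1d1 (1.32) and Dbp (0.93) passed. The count of 8 was the same with any single array left out. Clock and corticosterone-responsive transcripts vary over the day, and since the hour of collection is not given in the sources used here, the hour and the treatment cannot be told apart in these genes.

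**Figure D1:**
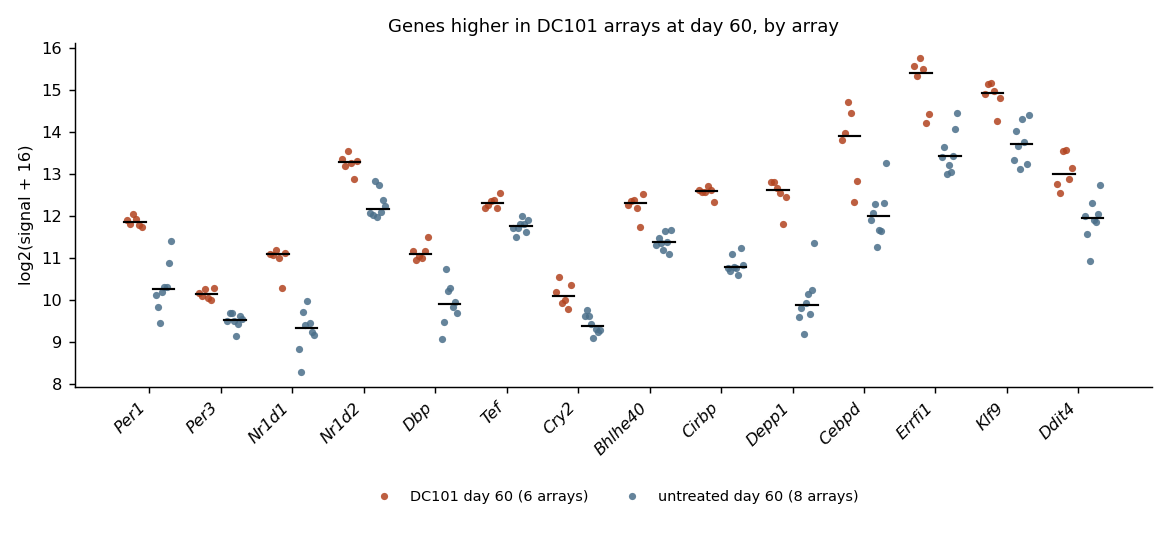
Level of 14 genes on the log2(signal + 16) scale in each DC101 array (left of each pair, 6 points) and each untreated array (right, 8 points) at day 60, with a bar at the median. All DC101 points of Per1, Nr1d1, Dbp and Cirbp lie above all untreated points, while those of Cebpd, Errfi1, Klf9 and Ddit4 overlap in part.

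Genes that glucocorticoids induce rose beside the clock genes. Corticosterone, the main glucocorticoid of mice, acts through the glucocorticoid receptor, which can bind DNA in pairs and raises transcripts such as Per1, Klf9 and Tsc22d3 within hours. Of 20 measured genes of this kind 10 rose in DC101 skin (against 4.65% of all genes) and none fell, with a median difference of 0.89, and 5 passed with the RNA ratios as covariates. Per1 belongs to this list and to the clock list. Within the DC101 arrays the mean level of the list correlated with the Actb ratio (r = -0.91 over 6 arrays) and within the untreated arrays likewise (r = -0.67 over 8 arrays), while with the Gapdh ratio r was -0.39 and 0.15 in the same arrays. These are descriptions.

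Cebpd, a transcription factor of acute responses and fat cell formation, had 12.35, 13.90 and 14.71 in DC101 arrays, against 11.26, 11.996 and 13.27 in untreated arrays. Of the 6 DC101 arrays 4 lay above every untreated array, and the difference was 1.64 (SE 0.25, adjusted p = 7.02e-06), against 0.46 on another probe set that did not pass. Errfi1, an inhibitor of the EGF receptor, had 14.21, 15.42 and 15.75 in DC101 skin and 12.997, 13.42 and 14.45 in untreated skin, again with 4 of 6 DC101 arrays above every untreated array and a difference of 1.60 (SE 0.24, adjusted p = 7.02e-06). Ddit4, an inhibitor of mTOR signalling, differed by 1.15 (adjusted p = 7.14e-05), with 5 of 6 DC101 arrays above the untreated range. Klf9, a transcription factor found in keratinocytes and many other cells, likewise had 5 of 6 arrays above that range and differed by 1.15 (adjusted p = 0.000151). Gadd45g, a stress-response gene, did not overlap between groups and differed by 1.35 (adjusted p = 0.00041). Dusp1, a phosphatase of MAP kinases, differed by 1.37 (adjusted p = 0.000489), Klf15 by 1.16 (adjusted p = 0.0289), Tsc22d3, known as GILZ, by 0.95 (adjusted p = 0.0182) and Sgk1, a kinase of salt transport, by 0.63 (adjusted p = 0.00514). Fkbp5, among the classic targets of the receptor, had a difference of -0.04 and did not pass (adjusted p = 0.904), nor did Zbtb16 at 0.33 or Pdk4 at 0.90 (adjusted p = 0.219). In the same fit with the RNA ratios Per1, Cebpd (1.26), Errfi1 (1.45), Ddit4 (1.14) and Sgk1 (0.74) passed.
The promoter of Sgk1 is shown because it holds, in capitals, the full palindrome of the glucocorticoid response element, to which a pair of receptors can bind, at chr10:21993640-21993889 (plus strand, GRCm38.p6, the fifth of 6 RefSeq windows), 189 bases before the start.
Sgk1: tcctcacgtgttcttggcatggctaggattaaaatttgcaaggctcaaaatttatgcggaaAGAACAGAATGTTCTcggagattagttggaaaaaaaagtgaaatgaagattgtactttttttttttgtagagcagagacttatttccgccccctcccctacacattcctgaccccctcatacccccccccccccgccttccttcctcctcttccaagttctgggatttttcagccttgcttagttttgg
With any 3 letters in its centre, this palindrome was found in 3 of 32851 promoter windows, and Sgk1 was the only one of the 11790 tested genes with a promoter to hold it. The E-box CACGTG occurred in 6 of 17 glucocorticoid-inducible genes with a promoter.

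The gene with the smallest adjusted p was Cirbp, which encodes a cold-inducible RNA-binding protein. It had 12.34, 12.59 and 12.71 in DC101 arrays, against 10.61, 10.79 and 11.25 in untreated arrays, with no overlap and a difference of 1.72 (SE 0.15, adjusted p = 4.98e-13). Depp1, an autophagy gene that forkhead factors and fasting induce, showed the largest rise among the named genes that passed, with 11.82, 12.62 and 12.82 in DC101 skin and 9.19, 9.88 and 11.36 in untreated skin. The groups did not overlap, and the difference was 2.53 (SE 0.27, adjusted p = 1.31e-10).

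The 4 heat shock genes that passed the test fell. Hspa8, the constant member of the HSP70 family, had 15.16, 15.26 and 15.37 in DC101 arrays, against 15.52, 15.66 and 15.81 in untreated arrays. The groups did not overlap, although the difference was only -0.38 (SE 0.07, adjusted p = 0.000258). Hsph1, which helps HSP70 release its clients, differed by -0.70 (adjusted p = 0.000435), Dnajb1, an HSP40 that feeds it, by -0.58 (adjusted p = 0.0319) and Hsp90aa1 by -0.43 (adjusted p = 0.00502). Other probe sets of Hsph1 (-0.29) and Dnajb1 (-0.23) did not pass. The calls of Hspa8 and Hsp90aa1 were lost under quantile normalization. In the joint list of 21 immediate early and heat shock genes, 3 rose, all of the immediate early kind: Fosb by 1.16, Nr4a1 by 1.22 and Dusp1, while the 4 chaperones were those that fell. The median of the list was 0.15.

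Genes of cell division had the largest share of members past the test among the 34 lists. Of 31 measured cell cycle genes 21 passed the test and all 21 were lower in DC101 skin, 30 of the 31 differences were negative, and the median difference was -1.03, against a background of 6.91% lower genes. Groups did not overlap in 8 members, against 239 lower genes of all tested (1.62%). The fall took in the entry into S phase (Ccne2, Mcm5, Rrm2), the mitotic kinases (Cdk1, Plk1, Aurka), the spindle checkpoint (Bub1, Bub1b), the kinetochore (Cenpe, Cenpf) and cell separation (Kif23, Prc1). The call depended on the RNA ratios: with both as covariates none of the 31 passed, and the median was -0.88. Within the DC101 arrays the list level followed the Actb ratio (r = 0.80 over 6 arrays) more than within the untreated arrays (r = 0.36 over 8 arrays), and this difference was not tested. With the Gapdh ratio r was 0.56 in DC101 arrays and -0.22 in untreated arrays.

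Mki67, which encodes the proliferation antigen Ki-67, had 9.67, 10.33 and 11.84 in DC101 arrays, against 11.92, 12.48 and 13.31 in untreated arrays. All DC101 arrays lay below all untreated arrays, and the difference was -1.96 (SE 0.38, adjusted p = 0.000396). Top2a, the topoisomerase that untangles replicated chromosomes, had 10.04, 10.44 and 11.41 in DC101 skin and 11.75, 11.95 and 12.48 in untreated skin, again with no overlap and a difference of -1.42 (adjusted p = 0.001). Cdk1, the kinase that drives mitosis, had 9.35, 9.86 and 10.54 in DC101 arrays, against 10.48, 11.04 and 11.55 in untreated arrays. Its groups overlapped slightly, with 4 of 6 DC101 arrays below every untreated array, and the difference was -1.12 (adjusted p = 0.0115). Bub1 differed by -1.73 (adjusted p = 0.00647) and Bub1b by -1.49 (adjusted p = 0.0123). Spdl1, which brings dynein to kinetochores, and Pole, the catalytic subunit of a replicative DNA polymerase, were among the largest falls of all genes, by -2.25 (adjusted p = 0.000616) and -2.14 (adjusted p = 0.00537), with 5 of 6 DC101 arrays below the untreated range in each. Most DC101 arrays of Bub1, Spdl1 and Pole lay below the filter level of 8.44, so the size of these falls is uncertain. Foxm1, the factor that activates many mitotic genes, had a difference of -0.11, and Tpx2, at 0.18, was the 1 positive member of the list; neither passed. The mean level of the list was 9.20, 9.71 and 10.41 in DC101 arrays, against 10.44, 10.72 and 10.997 in untreated arrays.
The promoters of Top2a at chr11:99024190-99024439 and Cdk1 at chr10:69352913-69353162 (both minus strand, GRCm38.p6) are shown because genes of mitosis often carry CCAAT boxes and the CHR element TTTGAA close to their start. Capitals mark both motifs on either strand, so ATTGG and TTCAAA are their reverse forms.
Top2a: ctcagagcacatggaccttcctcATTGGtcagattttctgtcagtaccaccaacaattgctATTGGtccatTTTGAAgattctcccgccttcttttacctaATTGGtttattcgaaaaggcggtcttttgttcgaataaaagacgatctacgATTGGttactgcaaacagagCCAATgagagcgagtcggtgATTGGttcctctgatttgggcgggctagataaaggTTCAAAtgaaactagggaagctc
Cdk1: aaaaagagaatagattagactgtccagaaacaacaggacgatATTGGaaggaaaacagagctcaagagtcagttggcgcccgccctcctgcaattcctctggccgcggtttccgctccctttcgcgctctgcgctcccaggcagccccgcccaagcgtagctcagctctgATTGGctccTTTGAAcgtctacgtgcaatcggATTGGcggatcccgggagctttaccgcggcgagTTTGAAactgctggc
Top2a held 6 CCAAT boxes between 227 and 58 bases before the start and CHR matches at 179 and 23 bases, and Cdk1 held 3 CCAAT boxes between 208 and 48 bases and CHR matches at 71 and 15 bases. CCAAT was found in 23 of 25 cell cycle genes with a promoter, against 39.5% of tested genes, and TTTGAA in 9 of 25, against 13.5%. CCAAT was also found in 11 of 16 clock genes and 10 of 17 glucocorticoid-inducible genes, and TTTGAA in 0 of 16 and 3 of 17. No cell cycle gene held CACGTG in its window.

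**Figure D2:**
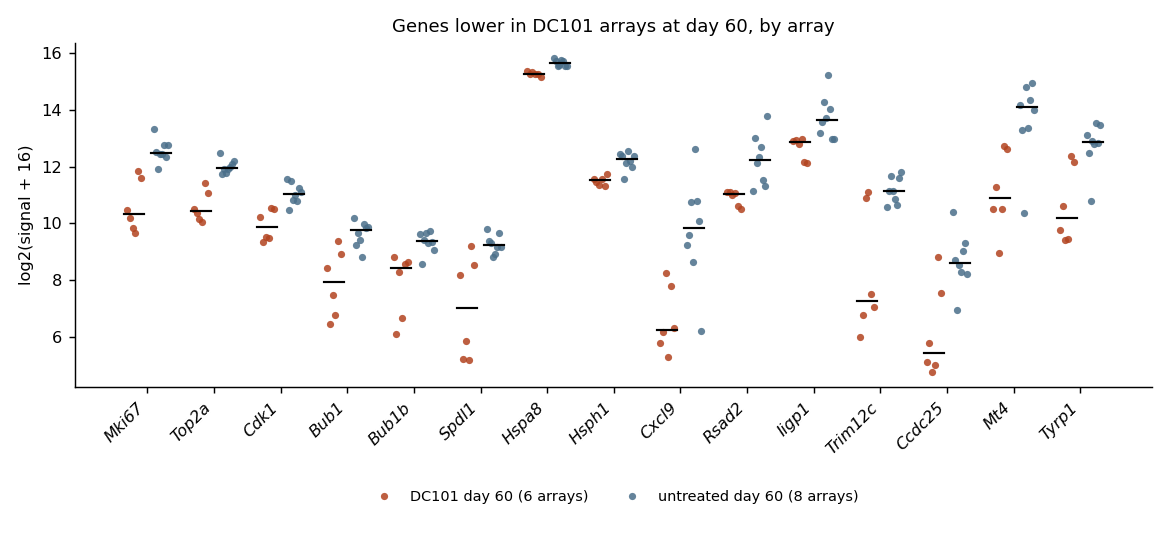
Level of 15 genes on the log2(signal + 16) scale in each DC101 array (left of each pair, 6 points) and each untreated array (right, 8 points) at day 60, with a bar at the median. Mki67, Top2a, Hspa8 and Rsad2 do not overlap between groups, and DC101 arrays 91 and 92 carry the 2 high points of Trim12c.

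**Figure D3:**
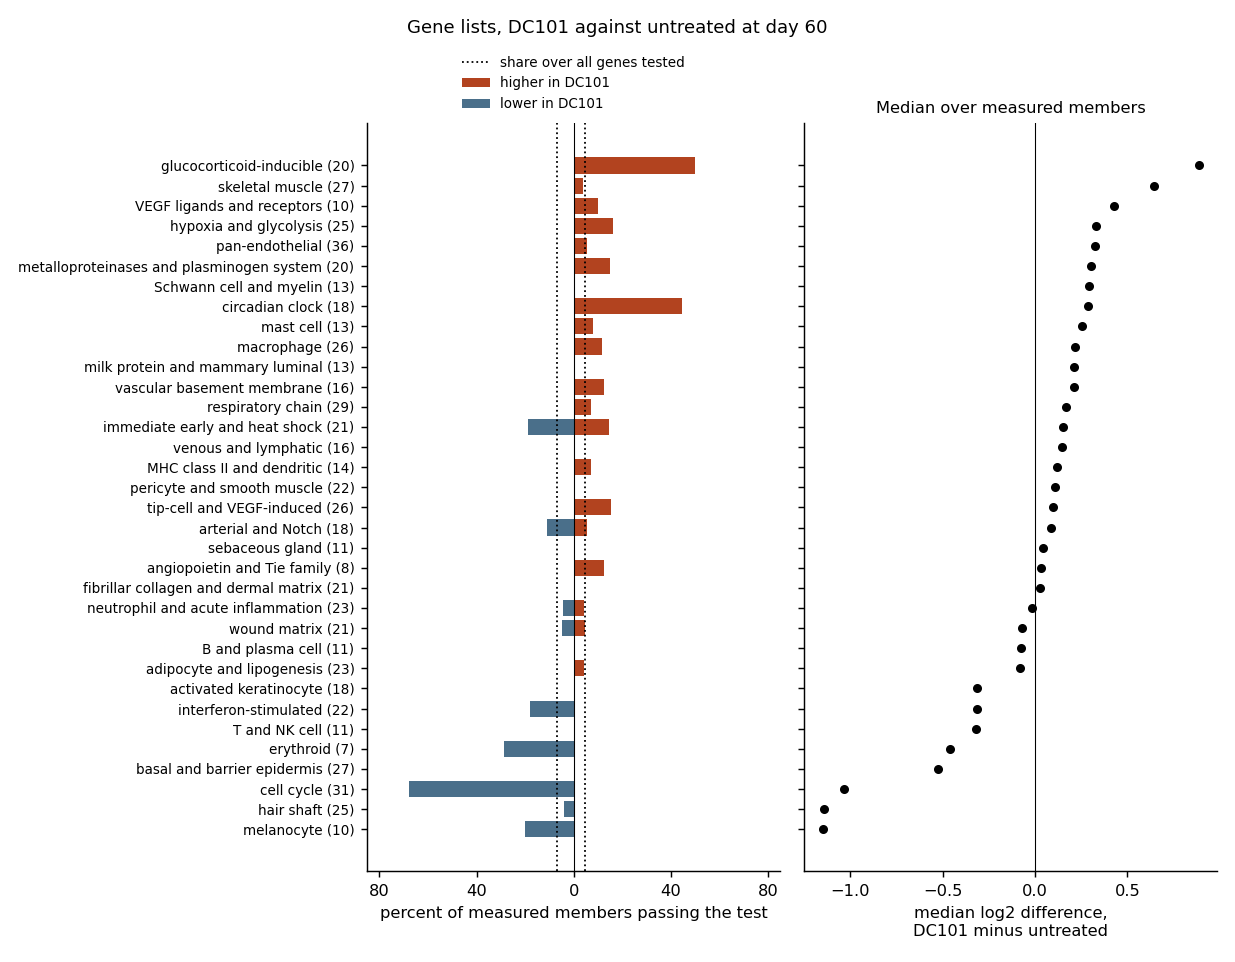
Percent of the measured members of each gene list that passed an adjusted p of 0.05, higher in DC101 arrays to the right and lower to the left, with the share of all tested genes as dotted lines (4.65% higher, 6.91% lower), and beside it the median log2 difference of each list. The cell cycle list stands out on the lower side with 21 of 31 genes, and the glucocorticoid-inducible (10 of 20) and clock (8 of 18) lists on the higher side.

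On the 1 probe set used per gene, 1 of 10 ligands and receptors of the VEGF system, Vegfd, passed the test, against 4.65% of all genes higher. Vegfa had 10.14, 10.38 and 11.04 in DC101 arrays, against 9.73, 10.07 and 10.62 in untreated arrays. The groups overlapped, and the difference of 0.40 (SE 0.42, adjusted p = 0.563) did not pass, although another probe set of Vegfa, with means of 11.56 in DC101 arrays and 10.60 in untreated arrays, differed by 0.96 (adjusted p = 0.000577), so the Vegfa result depends on the probe set. Kdr, the gene of the antibody's target, had 10.38, 10.87 and 11.30 in DC101 skin and 9.89, 10.33 and 10.90 in untreated skin, a difference of 0.49 that did not pass (SE 0.29, adjusted p = 0.26). Flt1 differed by 0.15 (SE 0.33, adjusted p = 0.804). Vegfd, a ligand of VEGFR3 that acts mainly on lymphatic vessels, had 11.58, 12.72 and 13.16 in DC101 arrays, against 10.75, 11.56 and 11.90 in untreated arrays, a difference of 1.04 (SE 0.25, adjusted p = 0.00377), and its other probe sets differed by 0.92 and 1.04 in the same direction.

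Most endothelial genes had positive differences, few of which passed the test. Of 36 measured pan-endothelial genes 29 had a positive difference, 2 rose, a share close to the 4.65% of all genes, and none fell, and the median difference was 0.32. Tek, the receptor for angiopoietins, had 12.70, 13.44 and 13.63 in DC101 arrays, against 12.24, 12.50 and 12.99 in untreated arrays, a difference of 0.72 (adjusted p = 0.0466). Plvap, which forms the diaphragms of permeable capillaries, had 11.89, 13.05 and 13.59 in DC101 skin and 10.25, 11.98 and 13.74 in untreated skin, a difference of 0.88 (adjusted p = 0.0364) with full overlap. Untreated array 77 carried the highest untreated level. Pecam1 and Cdh5, which are found on nearly all endothelium, had differences of 0.34 and 0.23 and did not pass. Leaving out single arrays gave between 0 and 5 pan-endothelial genes. In whole skin a change in the number of cells of a type and a change in RNA per cell cannot be told apart.

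Among 26 genes of sprouting tip cells and VEGF induction 4 rose, against 4.65% of all genes: Nr4a1 by 1.22 (adjusted p = 0.00254), Hlx, a homeobox factor, by 1.17 (adjusted p = 0.0388), Igfbp3, a binding protein of insulin-like growth factors, by 1.05 (adjusted p = 0.00683) and Adm by 1.002 (adjusted p = 0.00703). Adm, the vessel-dilating peptide adrenomedullin, had 11.35, 11.70 and 12.75 in DC101 arrays, against 10.14, 11.03 and 11.20 in untreated arrays, and did not overlap. The arterial and Notch list moved both ways. Efnb2, the ephrin that marks arteries and is also made in epidermis and hair follicles, differed by -0.99 (adjusted p = 0.00865), and Notch1 by -0.87 (adjusted p = 0.0425), though other probe sets of these genes did not pass (-0.68 and -0.13). Rbpj, the DNA-binding partner of Notch, rose by 0.53 (adjusted p = 0.017). Of 16 vascular basement membrane genes 2 were higher past the test, against the same 4.65%, Fbln1 at 0.99 and Lamc1 at 0.59. Other probe sets of Fbln1 had 0.49 and -0.47 and did not pass, nor did Fbln1 with its probe sets averaged (0.34). Several vascular calls lay close to the threshold. Over 25 settings, Lamc1 and Notch1 lost theirs in 16 each, Hlx and Tek in 14 each and Plvap in 10, single arrays left out among them. None of the 16 venous and lymphatic genes or of the 22 pericyte genes passed.

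Hypoxia, matrix and immune lists held single genes that rose. Of 25 hypoxia and glycolysis genes 22 had a positive difference and 4 passed, against 4.65% of all genes: Adm, Bnip3, a mitochondrial protein of mitophagy, by 0.90 (adjusted p = 0.0187), Pfkfb3, an activator of glycolysis, by 0.85 (adjusted p = 0.0341) and Ankrd37 by 0.74 (adjusted p = 0.0424). The glucose transporter Slc2a1 was just short of the threshold (0.65, adjusted p = 0.051). Among 20 genes of metalloproteinases and the plasminogen system the gelatinase Mmp9 had 10.28, 11.12 and 11.75 in DC101 arrays, against 8.73, 9.77 and 10.72 in untreated arrays, a difference of 1.296 (adjusted p = 0.0013). Mmp11 rose by 1.18 (adjusted p = 0.00859) and Plat, the tissue plasminogen activator, by 0.65 (adjusted p = 0.041). Against the same 4.65%, these were 3 of 20 genes, and 3 of 26 macrophage genes passed. Of the 26 macrophage genes 21 had a positive difference and Trem2, a lipid receptor, rose by 1.47 (adjusted p = 0.0253), Itgam by 1.03 (adjusted p = 0.0196) and Cd14, a receptor for bacterial lipopolysaccharide, by 0.98 (adjusted p = 0.006), while the defining markers Adgre1, Csf1r and Cd68 differed by 0.19, 0.36 and 0.30 and did not pass. Siglec1, a sialic acid receptor of macrophages, rose by 1.67 (adjusted p = 0.00294) on its brightest probe set, with 0.60 and -0.49 on others that did not pass. Cd83, a marker of mature dendritic cells, rose by 1.005 (adjusted p = 0.00583).

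Hdc, the enzyme that makes histamine, had 8.37, 9.16 and 9.91 in DC101 arrays, against 6.33, 6.72 and 9.86 in untreated arrays, a difference of 2.00 (SE 0.41, adjusted p = 0.000783). Untreated array 75 was the high one of its group, and the other 7 were at 7.97 or lower, below the filter level of 8.44, so the size of the rise is uncertain. The mast cell markers Cpa3, Cma1 and Kit differed by 0.25, 0.33 and -0.14 and did not pass. Of 13 mast cell genes Hdc alone passed, against 4.65% of all genes higher. Nog, which encodes the BMP antagonist noggin, had a fitted difference of 1.74 (adjusted p = 0.000235), but all its untreated arrays were below the filter level and no bound on the fold was above 1.

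Most interferon-stimulated genes had negative differences. Of 22 measured genes 21 were below 0, with a median of -0.31, 4 fell (against 6.91% of all genes) and none rose. With 1 array left out 2 to 4 passed, and over 25 settings Ifit1 lost its call in 13 and Iigp1 in 10. Cxcl9, a chemokine that interferon gamma induces, had 5.29, 6.26 and 8.25 in DC101 arrays, all below the filter level of 8.44, against 6.21, 9.84 and 12.62 in untreated arrays. The untreated arrays were spread widely and overlapped the DC101 arrays, and the level was at least 2.46-fold lower in DC101 skin (fitted difference -3.14, SE 0.68, adjusted p = 0.00127). Rsad2, the antiviral enzyme viperin, had 10.51, 11.03 and 11.12 in DC101 skin and 11.15, 12.23 and 13.78 in untreated skin, without overlap, and differed by -1.34 (adjusted p = 0.00293). Iigp1, a GTPase of defence inside cells, differed by -1.09 (adjusted p = 0.0327) and Ifit1 by -1.002 (adjusted p = 0.0383). Cxcl10 had a similar difference of -0.99 that did not pass (adjusted p = 0.0933). Of the 4, Rsad2 passed with the RNA ratios as covariates (-1.57), while Cxcl9 (-2.60), Iigp1 (-1.11) and Ifit1 (-1.13) kept most or all of their difference there but did not pass.

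Hair and pigment genes mostly had negative differences, with wide spread. All 25 measured hair shaft genes were below 0, with a median of -1.14, but 1 of them passed, a share below the 6.91% of all genes. It was the hair keratin Krt33b at -1.99 (adjusted p = 0.0121). The mean level of the list was 10.15, 12.26 and 13.63 in DC101 arrays, against 10.9995, 13.49 and 14.53 in untreated arrays, where array 75 was the low one. Mt4, a metallothionein of stratified epithelium, had 8.94, 10.90 and 12.74 in DC101 skin and 10.38, 14.08 and 14.94 in untreated skin, a difference of -2.56 (SE 0.79, adjusted p = 0.0239). Further large falls were those of Krtap16-3, a hair keratin-associated protein, at -2.26 (adjusted p = 0.0109), Lrat, which stores vitamin A as ester, at -2.23 (adjusted p = 0.0155), Fabp9 at -2.04 (adjusted p = 0.00997) and Dapl1 at -1.998 (adjusted p = 0.0179). Krtap16-3 and Fabp9 were below the filter level on every DC101 array, so that Fabp9 was at least 1.43-fold lower and no bound above 1 could be given for Krtap16-3.

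Of 10 melanocyte genes 2 fell (against 6.91% of all genes) and none rose, with a median of -1.15: Tyrp1, an enzyme of pigment synthesis, had 9.43, 10.19 and 12.36 in DC101 arrays, against 10.79, 12.87 and 13.54 in untreated arrays (difference -2.10, adjusted p = 0.0246), and Slc45a2, a melanosome transporter, differed by -0.79 (adjusted p = 0.0163). Of 7 erythroid genes 2 fell, against the same 6.91%. Alas2, the first enzyme of heme synthesis in red cells, differed by -2.20 (adjusted p = 0.0213) and Slc4a1, the anion exchanger of the red cell membrane, by -1.02 (adjusted p = 0.0469), a call lost in 17 of 25 settings. The mean level of the erythroid list did not overlap, with 10.09, 10.59 and 10.75 in DC101 arrays and 10.87, 11.02 and 11.72 in untreated arrays. None of the 27 basal and barrier epidermis genes passed, with a median of -0.52.

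Skeletal muscle genes had a median difference of 0.64, but 1 of 27 passed, a share below the 4.65% of all genes. Ryr1, the calcium release channel of muscle, had 13.64, 14.86 and 15.34 in DC101 arrays, against 9.91, 13.09 and 14.47 in untreated arrays, a difference of 1.83 (adjusted p = 0.0279). The low untreated array was 79, whose muscle list level of 10.88 lay far below the median of 13.9998 of its group, against 13.82, 14.38 and 14.77 in DC101 arrays. Without array 79 the median of the list was 0.17, and the count ranged from 0 to 3 with single arrays left out. Other muscle genes among the largest rises were Smtnl1 at 1.74, Mypn at 1.70, Trim63, a ubiquitin ligase of muscle wasting, at 1.70 and Tcap, a protein of the sarcomere's Z-disc, at 1.64 (adjusted p = 0.0327, 0.0434, 0.0484 and 0.00591 in that order). Array 79 was the lowest untreated array for Ryr1, Smtnl1, Mypn, Trim63 and Tcap. Without it Ryr1, Smtnl1, Mypn and Trim63 lost their calls, at 1.402, 1.213, 1.0997 and 1.3002 (adjusted p = 0.108, 0.141, 0.19 and 0.159). Tcap kept its call, with a smaller difference of 1.31 (adjusted p = 0.0297).

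**Figure D4:**
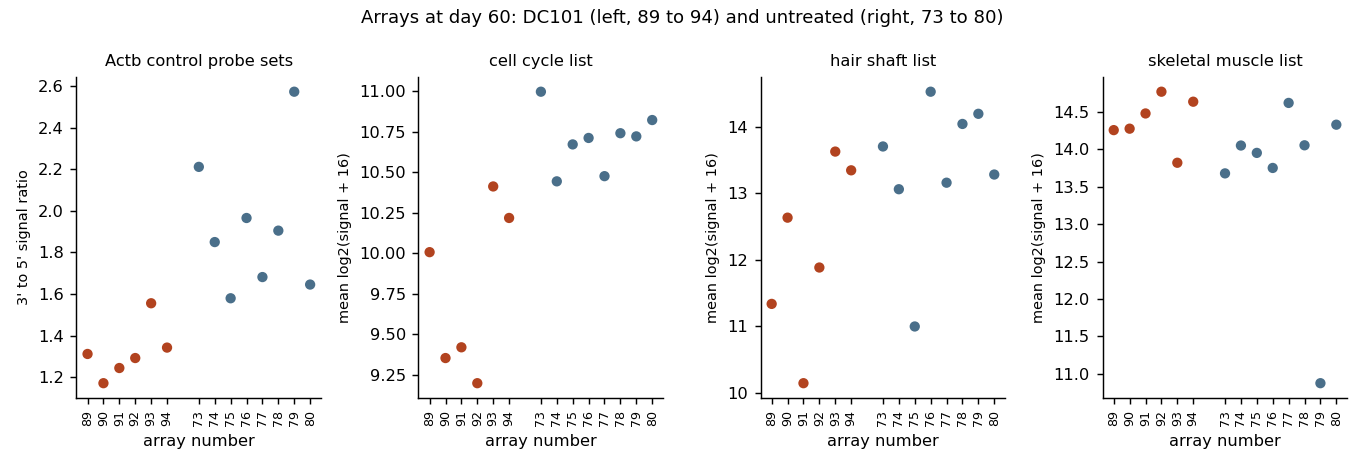
Actb 3′ to 5′ ratio and the mean level of the cell cycle, hair shaft and skeletal muscle lists (log2 scale) in each of the 6 DC101 and 8 untreated arrays of day 60. DC101 arrays lie lower than all untreated arrays in the ratio and in the cell cycle list, while untreated arrays 75 and 79 are far from their group in the hair and muscle lists.

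A few genes outside the lists changed by large amounts. Trim12c, a member of the TRIM family, had 6.01, 7.28 and 11.11 in DC101 arrays, against 10.59, 11.15 and 11.80 in untreated arrays, a difference of -2.96 (adjusted p = 0.000264). DC101 arrays 91 and 92 lay within the untreated range and the other 4 far below it and below the filter level, and another Trim12c probe set differed by 0.13. Ccdc25 had 4.78, 5.45 and 8.81 in DC101 skin and 6.96, 8.62 and 10.40 in untreated skin, a difference of -2.50 (adjusted p = 0.000654), with 4 of 6 DC101 arrays below the untreated range. Most DC101 arrays of Ccdc25 were below the filter level, so the size of its fall is uncertain. Rbmxl2 was at least 1.15-fold higher in DC101 skin, since it was below the filter level on all untreated arrays (fitted difference 1.68, adjusted p = 0.00665). Other list members passed too. These were Sdhc (0.86) and Cox4i1 (0.42) of 29 respiratory chain genes and Acacb (1.14) of 23 fat cell genes. Thbs2 (0.96) and Tnc (-0.95) passed of 21 wound matrix genes, and Mmp9 and Ccl4 (-0.45) of 23 neutrophil and inflammation genes. Over all genes 4.65% were higher and 6.91% lower, so these counts do not set the lists apart. For some genes named above as changed, another probe set above the filter level had the same sign but did not pass, with Top2a at -0.81, Slc45a2 at -0.42, Iigp1 at -1.03, Ryr1 at 1.54 and Sdhc at 0.37.

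The same antibody's effects at the earlier days were compared next. These rest on other arrays, 8 DC101 and 8 untreated at each day. The RNA ratios differed between the groups by day as well: the median Actb ratio was 1.29 in DC101 arrays and 1.62 in untreated arrays at day 5, 1.74 and 1.42 at day 20, and 1.302 and 1.88 at day 60, so that its difference had the opposite sign at day 20. The median Gapdh ratio was 0.847 in DC101 arrays and 1.03 in untreated arrays at day 5, and 0.848 and 0.849 at day 20. The part of the ratios in the overlap with day 5 and the reversal at day 20 was not tested. Of the 684 genes higher at day 60, 107 were also higher at day 5 (15.6% of the 684 and 15.6% of the day 5 genes), where 4.66% of all genes were higher, and of the 1017 lower, 214 were lower at day 5 (21% and 20.5%), where 7.11% were lower. At day 20, where 7.69% of all genes passed, 1 of the 684 was higher at day 20 and 88 were lower (12.9%, against 5.25% of all genes), and 5 of the 1017 were lower at day 20 and 116 were higher (11.4%, against 2.44% of all genes). Direct tests of the change in the DC101 effect found 2678 genes between days 60 and 20 (18.2%), 1310 more positive at day 60 (8.9%) and 1368 more negative (9.29%), and 483 between days 60 and 5 (3.28%), 292 more positive (1.98%) and 191 more negative (1.3%). With the RNA ratios as covariates these counts were 634 and 256. The first count was 1493 without untreated day 20 arrays 51 and 52, and the second was between 260 and 311 without DC101 array 90, 91 or 92. These tests use the same day 60 arrays, and the genes named below were partly chosen by their day 60 difference, so they add no separate support for it.

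In the glucocorticoid-inducible list 14 of 20 genes were higher with DC101 at day 5 (median 1.03), against 4.66% of all genes. At day 20, 5 were lower (against 5.25%) and none higher, and at day 60, 10 were higher (against 4.65%). The median Actb ratio differed the other way at each of these days, while the median Gapdh ratio was nearly equal at day 20 (0.848 and 0.849). The part of the ratios in this list was not tested. Of 18 clock genes 8 were higher at day 5 (median 0.55), 1 was lower at day 20 and 8 were higher at day 60, against the same shares. The effect was more positive at day 60 than at day 20 for 11 glucocorticoid-inducible and 4 clock genes, against 8.9% of all genes, and none was more negative. With the RNA ratios as covariates 5 glucocorticoid-inducible and 2 circadian clock genes were more positive past the test. Per1 had medians of 12.30, 10.66 and 11.85 in DC101 skin at days 5, 20 and 60 and of 10.82, 10.81 and 10.26 in untreated skin, and its effect was 1.65 higher at day 60 than at day 20. Between days 60 and 5 the effect was more positive at day 60 for 1 glucocorticoid-inducible gene (against 1.98% of all genes) and more negative for 4 (against 1.3%). Klf15 was among the 4 (difference of effects -2.47), with day 5 medians of 9.81 in DC101 skin and 6.47 in untreated skin. The effect of Depp1 was more positive at day 60 than at either earlier day, by 3.21 against day 20 and 2.37 against day 5.

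Many pan-endothelial and tip-cell genes had a more positive DC101 effect at day 60 than at day 20, days at which the Actb ratio differed between the groups in opposite directions. Of the pan-endothelial genes 19 had a more positive DC101 effect at day 60 than at day 20 and none a more negative one (median difference of effects 1.04), and of the tip-cell and VEGF-induced genes 13 were more positive and 1 more negative (1.11), against 8.9% more positive among all genes. With the RNA ratios as covariates no pan-endothelial gene passed (median 0.83) and 2 tip-cell and VEGF-induced genes did. Against day 5 the counts were 3 and 6 more positive (against 1.98% of all genes), with none more negative. Plvap, which differed by 0.88 at day 60, had a difference of effects of 1.58 against day 20, Adm of 1.12 and Vegfd of 1.28. Hair shaft genes went the other way, with 12 of 25 more negative at day 60 than at day 20 (against 9.29% of all genes) and a median of -2.83. With the covariates none of the hair shaft genes passed and the median was -2.88. Of 31 cell cycle genes 6 had a more negative effect at day 60 than at day 20 (median -0.63), against the same 9.29%. None differed between days 60 and 5 (median -0.40). The effect on Mki67 was more negative at day 60 by -1.73 against day 20.

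**Figure D5:**
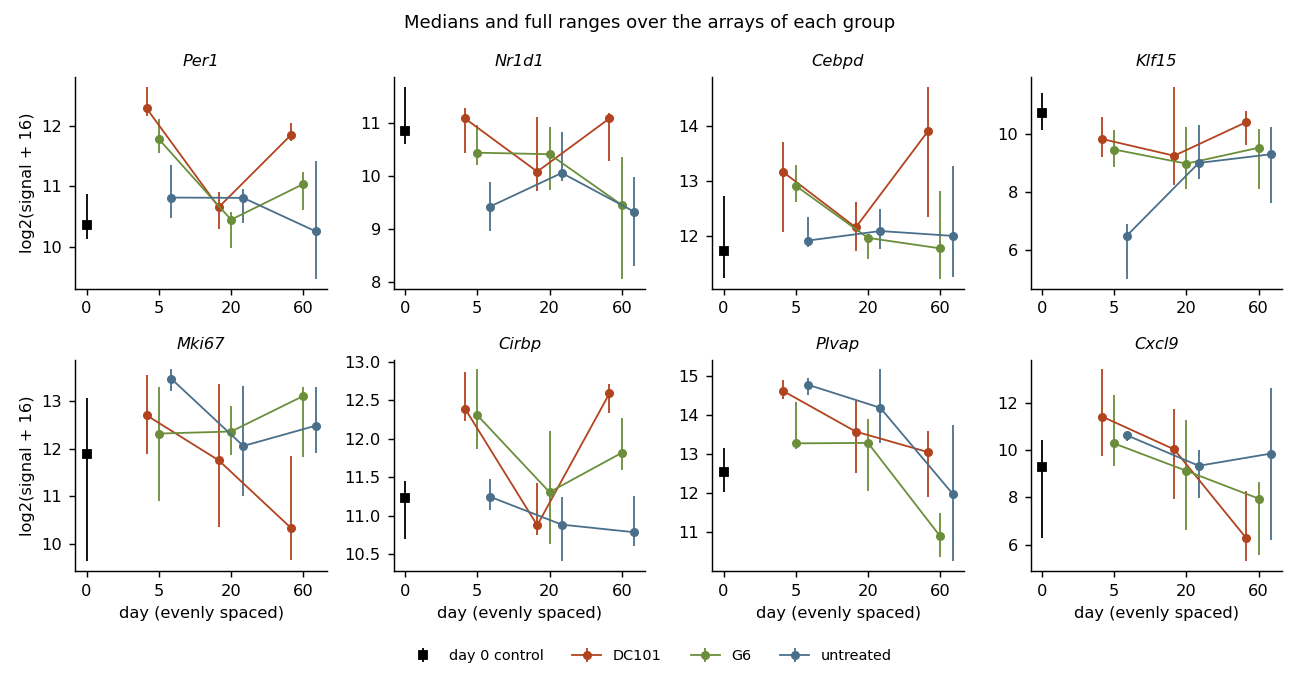
Median (point) and range (line) of 8 genes in the 10 groups of the series on the log2(signal + 16) scale, with days evenly spaced and DC101, G6 and untreated skin as separate series. The medians of Per1 and Klf15 in DC101 skin are lower at day 20 than at day 5 or day 60, and Mki67 at day 60 is lowest in DC101 skin.

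Against G6, the other antibody at day 60, DC101 skin differed in 5955 genes (40.5%), of which 3223 were higher (21.9%) and 2732 lower (18.6%). Both groups were also set against the same untreated arrays, so these values stand side by side. G6 arrays had an Actb ratio of 1.81, 2.22 and 3.03 (lowest, median and highest), above all DC101 arrays, and with the RNA ratios as covariates no gene passed between the antibodies. In the fit without them 27 of 36 pan-endothelial genes were higher in DC101 skin than in G6 skin and none lower (median 0.99), as were 24 of 27 skeletal muscle genes (median 1.56), 21 of 26 macrophage genes and 16 of 21 fibrillar collagen genes. Cell cycle genes were lower in DC101 skin in 28 of 31 cases (median -1.25), and Mki67 had a median of 13.11 in G6 skin. Of the glucocorticoid-inducible genes 11 were higher in DC101 skin than in G6 skin and none lower, and of the clock genes 8 were higher and 1 lower.

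G6 skin itself differed from untreated skin at day 60 in 1751 genes (11.9%), with 388 higher (2.64%) and 1363 lower (9.26%), but in 344 with only the groups compared in the fit and in 27 with the RNA ratios as covariates. In the lists that moved with DC101, G6 gave 2 higher glucocorticoid-inducible genes, 1 higher clock gene and no cell cycle gene past the test, and 16 of 22 interferon-stimulated genes were lower, against 3 of 22 with the covariates. Per1 differed by 0.67 and Cirbp by 1.03 between G6 and untreated skin, against 1.55 and 1.72 between DC101 and untreated skin.

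Skin without vector, taken as day 0, was set beside both groups. The labels give day 0 mice the same age of 4 to 6 weeks, so age at sampling may differ from that of day 60 mice. The part of age in the differences was not tested. The Actb ratio of the day 0 arrays was 1.21, 1.31 and 1.502 (lowest, median and highest). It lay within the DC101 range and below every untreated array of day 60, while the clock genes that follow were higher at day 0 than in untreated day 60 skin. The part of the Actb ratio in their levels was not tested. The Gapdh ratio of day 0, at 0.772, 0.796 and 0.859, overlapped both groups. Several clock genes of untreated day 60 skin lay below day 0 skin: Dbp by -2.10, Nr1d1 by -1.68, Nr1d2 by -1.46, Tef by -1.14 and Per3 by -1.02, all past the test. In DC101 day 60 skin Dbp at -0.86 (adjusted p = 0.00331), Tef at -0.58 (adjusted p = 0.00132) and Nr1d2 at -0.50 (adjusted p = 0.0354) were also lower than at day 0 past the test, while Nr1d1 at 0.02 (adjusted p = 0.973) and Per3 at -0.39 (adjusted p = 0.063) did not pass. The clock list had a median level of 10.71 in DC101 skin, 10.26 in untreated skin and 10.81 at day 0. Other genes of DC101 skin lay above day 0, with Per1 at 1.41, Cirbp at 1.38 and Depp1 at 2.57. The cell cycle list had a median level of 9.71 in DC101 skin, 10.72 in untreated skin and 10.29 at day 0, and the day 0 arrays ranged over both.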

How the data were processed

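Flank skin RNA was measured by the submitters on Affymetrix Mouse Genome 430 2.0 arrays. Per the labels' protocols RNA was extracted with RNeasy columns and processed at Asuragen. The deposited values are signal intensities on a linear scale that the authors made with MAS5 in GCOS 1.3, per the submitters' processing notes. Whether arrays were scaled is not given in the sources used here, but the mean of the middle 96% of the values was 1500.01 on every one of the 78 arrays. The values, of 45101 probe sets, ran between 0.15 and 186384.77. The number of arrays limits the precision.

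Values were turned into log2(signal + 16). Of the probe sets 34958 had 1 gene symbol, 932 several and 9211 none in the platform annotation, and 34754 of the first matched a RefSeq gene. Single-symbol probe sets with a signal above 331.198, the 40th percentile (8.44 on the log2 scale), on at least 6 arrays were kept (26696), and the brightest one stood for each of 14718 genes. Differences were fitted with limma 3.58.1 in R 4.3.3 over all 78 arrays of 10 groups (lmFit, eBayes with an intensity trend, two-sided, Benjamini-Hochberg over all genes, threshold 0.05), and other probe sets of named genes were looked up. A gene below the filter level on all arrays of 1 group has only a bound, given as "at least". No set test was run. The 34 gene lists (652 of 714 entries measured) and the genes named were chosen with earlier results of these data known. The rule for names took Vegfa, Flt1 and Kdr, the 12 genes that rose most and the 12 that fell most among those called, skipping symbols of clones and predicted genes, up to 3 members past the threshold from each list (or the largest difference where none passed) and the 5 largest in each direction in the other comparisons. Other members, among them clock, cell cycle and glucocorticoid-inducible genes, were named after their values were seen, and so were the chaperones, the 6 promoters and their motifs. Replicate groups were taken from the labels, and no array repeated another (highest correlation 0.98). In simulated data with 14718 genes, 74 of 100 genes changed by 1 log2 unit and 25 of 100 changed by 0.5 were recovered for DC101 against untreated skin at day 60, with 6 false calls. The simulated noise was independent between genes and between arrays, without an RNA ratio difference, related arrays or outlying arrays. The false calls of the real data can therefore not be read from it. Alternatives changed the pseudocount, filter, normalization, probe set, array weights, groups in the fit, RNA ratio covariates, averaging of adjacent arrays, minimum fold and single arrays. Promoter sequences are RefSeq's, in build GRCm38.p6. Figures were drawn with matplotlib 3.10.9.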

Additional observations from a re-analysis of the deposited data

Results flagged for a closer look

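In 198 groups of values tested for an array far from its group, 24 were found, where chance gives about 1 in 20. Most were 2 untreated arrays. Untreated array 75 was the lowest of its group for the hair shaft list level (10.9995) and the melanocyte list level (9.95) and for Efnb2 (11.77), Notch1 (11.34), Mt4 (10.38), Lrat (8.81), Tyrp1 (10.79), Fabp9 (6.87) and Dapl1 (11.18), and the highest for Hdc (9.86) and the macrophage list level (12.96). Untreated array 79 was the lowest for the skeletal muscle list level (10.88) and for Ryr1 (9.91), Smtnl1 (5.86), Mypn (6.53), Trim63 (9.25) and Acacb (6.34). Untreated array 77 was the lowest for Adm (10.14). DC101 array 93 was the lowest of its group for Nr1d1 (10.29), Depp1 (11.82), Bnip3 (13.03), Ryr1 (13.64) and Sdhc (12.33), and DC101 array 92 for the Gapdh ratio (0.783).

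The DC101 effect differed between days 60 and 20, tested as the difference of effects in the limma fit, for 53 of the genes examined. These genes were chosen partly by their day 60 difference. Among vascular and matrix genes it was more positive at day 60 for Vegfd (1.28), Plvap (1.58), Adm (1.12), Hlx (2.59), Igfbp3 (1.40), Nr4a1 (1.52), Lamc1 (1.304), Mmp9 (1.78) and Mmp11 (2.02). Among clock and hormone-responsive genes it was more positive for Per1 (1.65), Per3 (0.67), Nr1d1 (1.64), Nr1d2 (0.80), Cirbp (1.58), Depp1 (3.21), Cebpd (1.64), Errfi1 (1.79), Dusp1 (2.32), Gadd45g (1.32), Klf9 (1.33), Tsc22d3 (1.35), Sgk1 (0.72), Ddit4 (1.73) and Fosb (1.97). Immune, muscle and other genes with a more positive effect were Hdc (2.69), Siglec1 (2.35), Itgam (1.52), Cd14 (1.02), Cd83 (1.06), Nog (1.87), Ryr1 (2.42), Tcap (1.98), Rbmxl2 (2.75), Sdhc (1.18) and Cox4i1 (0.45). It was more negative at day 60 for the division and chaperone genes Mki67 (-1.73), Spdl1 (-1.93), Pole (-2.47), Hsph1 (-0.57), Hspa8 (-0.41) and Hsp90aa1 (-0.58), and for the hair, pigment and epithelial genes Mt4 (-4.53), Krtap16-3 (-3.24), Lrat (-3.41), Tyrp1 (-2.91), Slc45a2 (-1.08), Krt33b (-3.11), Fabp9 (-2.64) and Dapl1 (-3.40). Cxcl9 (-3.93), Iigp1 (-1.45), Trim12c (-3.66) and Ccdc25 (-2.04) were more negative too.

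Between days 60 and 5 the effect differed for 14 of them. It was more positive at day 60 for Hlx (2.41), Igfbp3 (1.80), Lamc1 (1.43), Depp1 (2.37), Dusp1 (1.42), Siglec1 (2.84), Nog (1.89), Trem2 (2.38), Cd83 (1.14) and Mmp9 (2.16), and more negative for Klf15 (-2.47), Cxcl9 (-4.06), Trim12c (-3.39) and Iigp1 (-1.84).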

How the results depend on the processing

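The count of 1701 genes was 4541 with array weights (2027 higher, 2514 lower), 183 with the Gapdh and Actb ratios as covariates (60 and 123), 697 with adjacent arrays averaged (273 and 424) and 230 at a 2-fold minimum (86 and 144). With single arrays left out it ranged from 898 without DC101 replicate 91 to 2528 without DC101 replicate 93 (303 to 1100 higher, 595 to 1428 lower). Added after seeing the data, it was 1074 without untreated arrays 77 and 79 (399 and 675) and 2993 without DC101 arrays 93 and 94 (1272 and 1721). DC101 against G6 gave 0 genes with the covariates, where Myoz3 and Actn3 reversed to -0.49 each, and 1650 at 2-fold, and with single DC101 arrays left out 4828 to 6464. Effects at day 60 minus day 20 gave 4964 genes with array weights, 634 with covariates, 1219 with adjacent arrays averaged, 818 at 2-fold, 1493 without untreated day 20 arrays 51 and 52 and 1955 to 3349 with single arrays left out. Effects at day 60 minus day 5 gave 2273, 256, 30 and 136 under the same first 4 settings, 962 with only the groups compared, 310 without untreated arrays 77 and 79, 973 without DC101 arrays 93 and 94 and 260 to 698 with single arrays left out. G6 against untreated gave 344 with only the groups compared, 27 with covariates, 766 with adjacent arrays averaged, 335 at 2-fold and 1146 without G6 arrays 86 and 87. The cause of these shifts was not tested, apart from the fewer arrays or the stricter threshold of some. Cell cycle genes lower numbered 0 with covariates, 12 with adjacent arrays averaged and 15 to 23 with single arrays left out. Glucocorticoid-inducible genes higher numbered 5 with covariates and 8 to 10 with single arrays left out, and clock genes higher 3 with covariates, 3 at 2-fold and 8 with any single array left out. Pseudocounts of 1 and 64, no filter, quantile normalization and averaging all probe sets per gene kept these counts within 1.5 times. Quantile normalization moved the median of all genes from -0.01 to 0.01 and the share of calls that were higher from 40.2% to 43.4%. Of 87 genes examined, 84 passed, and 13 passed in all 25 settings: Per1, Nr1d1, Dbp, Cirbp, Depp1, Cebpd, Errfi1, Ddit4, Hsph1, Hdc, Trim12c, Ccdc25 and Rsad2. No paired analysis was possible because the running numbers are not shared between groups.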

Other observations

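Many genes with an Rpl or Rps symbol, most of them ribosomal protein genes, were lower in DC101 skin than in untreated skin at day 60. The match by symbol also took in genes that are not ribosomal proteins, such as Rps19bp1, which was among the lower genes. Of 54 measured genes with an Rpl or Rps symbol 34 were lower past the limma threshold (63%, against 6.91% of all genes) and none was higher, with a median difference of -0.33. Under quantile normalization 10 passed with a median of -0.10, and with the RNA ratios as covariates 3 passed with a median of -0.25. Without untreated arrays 77 and 79 the count was 20, and without DC101 arrays 93 and 94 it was 30. Genes of ribosome assembly (Nop, Nol, Utp and like symbols) were lower in 15 of 47 cases (31.9%), among them Nop56, Nop58 and Nolc1, and proteasome genes (Psm symbols) in 8 of 42 (19%). Mean levels were 14.30 for the Rpl and Rps genes and 12.87 for the proteasome genes. Among the 1000 brightest genes 152 were lower and 41 higher, and 91 were lower under quantile normalization. Zinc finger genes with a Zfp symbol were lower in 43 of 269 cases (16%) and higher in 6. These families were picked by their symbols after the values were seen and carry no test.

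The largest differences between DC101 and G6 skin at day 60 were in muscle genes on the higher side, with Mybph at 3.27, Myoz3 at 3.16, Actn3 at 3.08 and Lmod3 at 3.01, and Ugt8a, an enzyme of myelin lipid synthesis, at 2.98. On the lower side were the epidermal envelope genes Rptn at -3.20, Lce3c at -3.16 and Lce3a at -2.85, with Ccdc25 at -3.09 and Pole at -3.05. Other genes whose DC101 effect changed most between days 60 and 20 were Fhod1 (3.29) and Hcls1 (2.78) upward and Idi2 (-6.11), Krtap15 (-4.60), Krt33a (-4.60) and Krtap7-1 (-4.53) downward, and between days 60 and 5 they were Zfp949 (2.56) upward and Thrsp (-3.20) and Mrap (-2.80) downward. Between G6 and untreated skin at day 60, the keratinocyte genes Krt6b (2.11), Lce3c (1.99) and Rptn (1.87), Ltb4r1 (1.83) and Slc5a9 (1.61) rose most, and Pmp2 (-3.49), Alas2 (-2.88), Mybph (-2.70), Ifi44l (-2.39) and Cxcl9 (-2.26) fell most.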
